A study of Bos taurus with 12 samples.

Results

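RAD50 was followed through maturation of bovine oocytes with 2 probe sets, Bt.27405.2.S1_at and Bt.27405.1.S1_at, out of 24016 on the array that are not controls. RAD50 is 1 of 9155 genes named by a single symbol, and these are all the probe sets whose platform annotation gives RAD50 alone, and each is shown apart. RAD50 was chosen for its change between stages in adult oocytes, so every RAD50 value from the adult arrays is given as a description with no test. The stage comparison in prepubertal oocytes was not used in that choice and was tested.

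Oocytes came from Japanese Black cattle and were collected in 4 groups of 3 Affymetrix arrays, each array with RNA from a pool of 50 oocytes. Adult cows and prepubertal heifers of 9 to 12 months gave oocytes at the germinal vesicle (GV) stage, taken at once after aspiration from follicles of 2 to 8 mm. The metaphase II (MII) groups of both ages were oocytes with a polar body after 20 to 22 h of maturation in vitro. All oocytes were freed of cumulus cells before pooling, and no group carried a further treatment. The 3 pools of a group are named as biological replicates, without the animals they came from, so p-values measure the spread between these pools.

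RAD50 is a long coiled-coil ATPase related to the SMC proteins that hold and fold chromosomes. With the nuclease MRE11 and the adaptor NBN it forms the MRN complex, which binds broken DNA ends, tethers them, begins their resection and switches on the kinase ATM. In germ cells the same complex processes the programmed breaks of meiotic recombination, a step that oocytes finish before birth. A GV oocyte is arrested late in the first meiotic prophase and an MII oocyte is arrested again after the first division. A fully grown oocyte lives largely on stored maternal mRNA during these steps.

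The labelled cell type was checked with 9 oocyte markers, among them the growth factors GDF9 and BMP15 and the zona pellucida genes ZP2 to ZP4. Their median lay 5.49 to 8.31 log2 units above the array median on 9 arrays, which are said here to have an oocyte profile. On the other 3 arrays, GV adult replicate 1 and both prepubertal replicate 1 arrays, it lay between -0.55 and 0.76. The median of 14 cumulus and granulosa markers lay between -1.58 and 0.71 on the 9 arrays and between -0.42 and 3.62 on the other 3, and that of 11 theca and stroma markers between -2.15 and 0.38 against 0.38 to 2.77. The high values were those of the prepubertal replicate 1 arrays at GV and MII, 2.28 and 3.62 for cumulus and granulosa, 1.28 and 2.77 for theca and stroma. On GV adult replicate 1 these medians, -0.42 and 0.38, lay within the ranges of the 9 arrays. Its array median, 8.30, was the highest. The median of 8 blood cell markers lay between -2.20 and -0.79 on the 9 arrays and between -1.19 and -0.87 on the other 3. Results are therefore given over 12 and over 9 arrays. Array medians ran from 5.64 to 8.30 log2 units, and the small number of arrays limits the precision of every value.

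In adult oocytes, Bt.27405.2.S1_at was high at MII and lower at GV with little spread of the deposited signal in either group. Its log2 signals at GV were 9.33, 9.58 and 9.47 in replicates 1, 2 and 3. At MII they were 13.26, 13.43 and 13.40. The lowest MII array lay well above the highest GV array, and the deposited signal of GV adult replicate 1, 1 of the 3 arrays without an oocyte profile, was close to the other GV arrays. Relative to the median of its own array it was not: the signal lay 1.02 above that median in GV replicate 1, against 3.30 and 3.24 in replicates 2 and 3, so the small spread at GV depends on the scaling. The mean went from 9.46 ± 0.12 (SD, n = 3) to 13.36 ± 0.09 (SD, n = 3), a log2 difference of 3.90 with an SE of 1.26, or 15.0-fold. Without GV adult replicate 1 it was 3.84 (SE 0.61), with all 3 arrays without an oocyte profile left out of the fit. This is the contrast that chose the gene. Among 14409 probe sets kept after a filter on low signal, 8.11% had a higher MII group that did not overlap the GV group over 12 arrays, and 15.0% over 9 arrays, so the lack of overlap alone is common. At an adjusted p under 0.05, limma called 0.0486% of probe sets higher and 0.0694% lower over 9 arrays, and 0% over 12.

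On the other RAD50 probe set the adult groups overlapped. Bt.27405.1.S1_at read 6.99, 12.84 and 8.95 at GV in adult replicates 1, 2 and 3, and 11.88, 11.66 and 6.90 at MII. Both stages held high and low arrays, and the groups overlapped over most of their range. Its means were 9.59 ± 2.98 (SD, n = 3) and 10.15 ± 2.81 (SD, n = 3), with a log2 difference of 0.56 (SE 1.53, 95% interval -2.65 to 3.76). Over the 9 arrays the difference was -0.75 (SE 1.39, 95% interval -3.72 to 2.22), and it also lay below 0 without MII adult replicate 1 (-0.31), without MII adult replicate 2 (-0.20) and in a fit with a term for the letter b that some titles carry (-0.04). Without MII adult replicate 3, the lowest MII array of this probe set, it was 2.18.

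**Figure D1:**
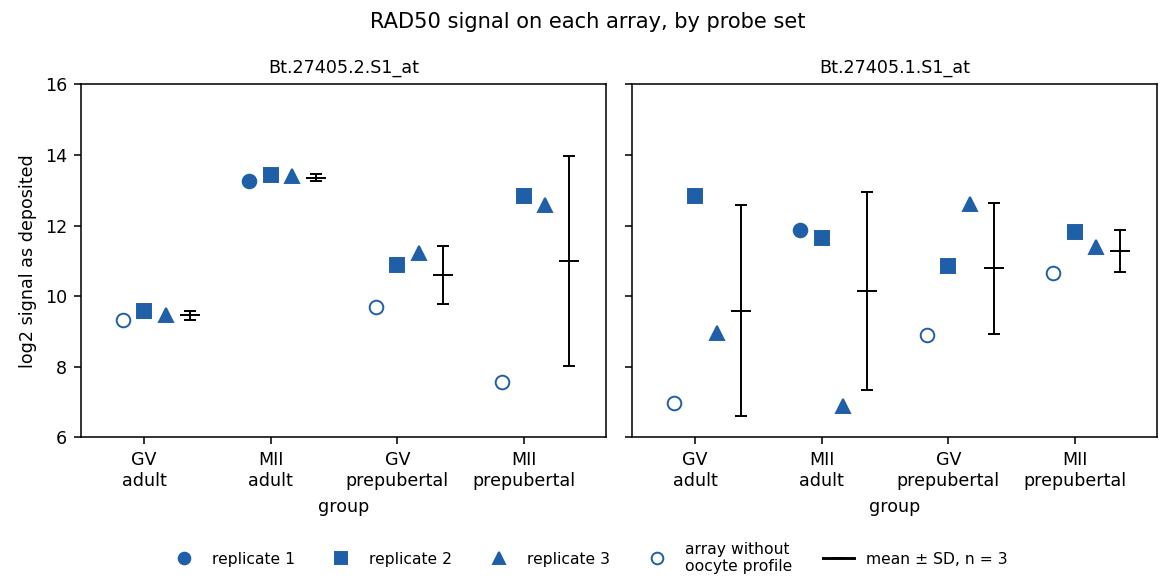
Log2 signal of RAD50 as deposited (vertical axis) on each of 12 arrays, by group and by probe set; the symbol gives the replicate number, open symbols mark the 3 arrays without an oocyte profile, and bars give the mean ± SD (n = 3). On Bt.27405.2.S1_at the adult MII arrays sit at 13.26 to 13.43 and the adult GV arrays at 9.33 to 9.58, while on Bt.27405.1.S1_at the adult groups overlap.

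In prepubertal oocytes the MII arrays lay on both sides of the GV arrays on Bt.27405.2.S1_at. The GV arrays read 9.68, 10.89 and 11.22 and the MII arrays 7.56, 12.84 and 12.58 in replicates 1, 2 and 3. Replicates 2 and 3 were higher at MII than any GV array, and MII replicate 1 was the lowest of all 12 arrays. From the GV to the MII array of the same number, the signal differed by -2.12, 1.95 and 1.36. The stages are separate pools, and the labels do not say that those of the same number belong together. The means were 10.60 ± 0.81 (SD, n = 3) and 11.00 ± 2.97 (SD, n = 3). The change of 0.40 (SE 1.26, 95% interval -2.25 to 3.04) did not pass limma's test (adjusted p = 0.999). An exact two-sided permutation test of 3 against 3 arrays gave p = 1, where the smallest p it allows is 0.1.

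Over the 9 arrays the prepubertal change on Bt.27405.2.S1_at was larger but again did not pass. It was 1.65 (SE 0.67, 95% interval 0.23 to 3.08), from 11.06 ± 0.24 (SD, n = 2) to 12.71 ± 0.18 (SD, n = 2). Limma's unadjusted p was 0.0256 and its adjusted p = 0.682 over 14409 probe sets, of which 3.57% had an unadjusted p under 0.05 with higher MII values. At an adjusted p under 0.05, limma called 0% of probe sets higher or lower in this comparison, over 12 and over 9 arrays. The 2 arrays per stage did not overlap, as was so with higher MII values for 19.4% of probe sets. The MII pool that was low for RAD50, replicate 1, was also without an oocyte profile. On it the hyaluronan matrix gene TNFAIP6 read 13.81 and BMP15 6.55, and the part of its cell content in the RAD50 value was not tested. In pooled material, fewer cells of a type and less RNA per cell cannot be told apart.

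On Bt.27405.1.S1_at the prepubertal stages overlapped. Its GV arrays read 8.89, 10.85 and 12.62 and its MII arrays 10.65, 11.82 and 11.41. The difference was 0.51 (SE 1.53, 95% interval -2.70 to 3.71; limma adjusted p = 0.999), and over the 9 arrays -0.12 (SE 1.52; limma adjusted p = 0.992). GV replicate 1, the lowest of the 6, set the sign: without it the difference was -0.44. The exact permutation test over 6 arrays gave p = 0.8.

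The rank of RAD50 within each array, which does not depend on how arrays were scaled to each other, followed the signals. Bt.27405.2.S1_at lay above 66.5%, 84.6% and 84.1% of all probe sets on the adult GV arrays and above 98.5%, 98.9% and 97.7% on the adult MII arrays. On the prepubertal GV arrays it lay above 83.4%, 91.8% and 91.9%. On the MII arrays it lay above 64.8%, 97.8% and 96.9%, where the first value is the array without an oocyte profile. Of the 5 MII arrays with an oocyte profile, each ranked this probe set above every GV array. The adult arrays among these chose the gene, and the share of all probe sets that rank so was not counted. Bt.27405.1.S1_at lay above 34.4%, 97.1% and 81.3% on the adult GV arrays and above 94.8%, 94.4% and 57.2% on the adult MII arrays. Its prepubertal ranks were 74.0%, 91.6% and 96.8% at GV and 89.5%, 94.9% and 92.8% at MII.

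**Figure D2:**
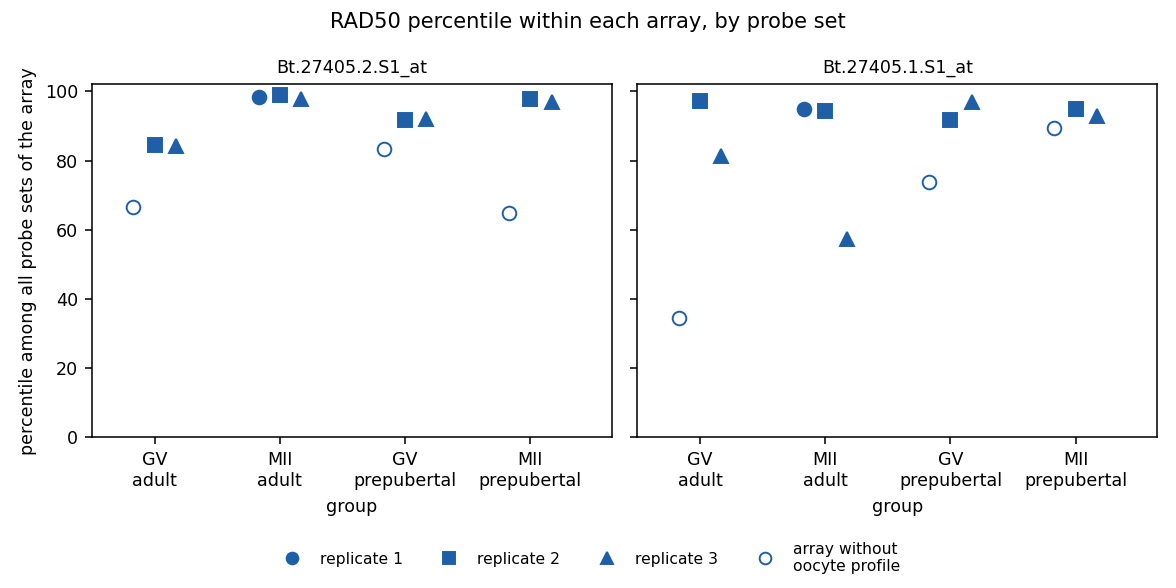
Share of all probe sets of the same array that lie below RAD50, in percent (vertical axis), by group and probe set; symbols as replicate numbers, open symbols for arrays without an oocyte profile. The 5 MII arrays with an oocyte profile put Bt.27405.2.S1_at at 96.9% to 98.9%, and no GV array puts it above 91.9%. The adult arrays among these chose the gene, and the share of all probe sets that rank so was not counted.

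Between the ages, Bt.27405.2.S1_at was higher in prepubertal than in adult oocytes at GV and lower at MII. At GV the difference was 1.14 (SE 1.26, 95% interval -1.50 to 3.78) over 12 arrays and 1.53 (SE 0.67, 95% interval 0.11 to 2.95) over 9. In the deposited signal every prepubertal GV array lay above every adult one, as 3.80% of probe sets did over 12 arrays and 16.2% over 9. By rank within the array the GV groups overlapped over 12 arrays. GV prepubertal replicate 1 stood at 83.4%, below GV adult replicates 2 and 3 at 84.6% and 84.1%. At MII the difference was -2.37 (SE 1.26, 95% interval -5.01 to 0.28). It came largely from 1 array: without MII prepubertal replicate 1 it was -0.65, as it was over the 9 arrays (SE 0.61, 95% interval -1.95 to 0.65). In the deposited signal every prepubertal MII array lay below every adult one, as did 5.18% of probe sets over 12 arrays and 9.89% over 9. By rank the MII groups overlapped over 12 and over 9 arrays, so these separations depend on the scaling. Bt.27405.1.S1_at read 1.19 (SE 1.53) at GV and 1.14 (SE 1.53) at MII, with overlapping groups at both stages. At GV its difference was -0.11 without GV adult replicate 1 and at MII -0.48 without MII adult replicate 3. These comparisons use the adult arrays that chose the gene and carry no test, so an interval that leaves out 0 is not read as one.

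Ordered by their means over the 9 arrays, the groups on Bt.27405.2.S1_at ran from adult MII (13.36) through prepubertal MII (12.71) and prepubertal GV (11.06) to adult GV (9.52). In the deposited signal no neighbouring groups overlapped in that order. By rank within the array the MII groups did overlap, at 97.8% on MII prepubertal replicate 2 and 97.7% on MII adult replicate 3. With each array's median subtracted they overlapped too, so the lack of overlap at MII depends on the scaling. Taken pair by pair over the 9 arrays, 9.89%, 19.4% and 16.2% of probe sets lacked overlap in the same direction. The share for the whole order was not counted, and its ends are the adult groups that chose the gene. Over 12 arrays the order was the same, at 13.36, 11.00, 10.60 and 9.46, and the prepubertal groups then overlapped. The maturation change in prepubertal oocytes minus that in adult oocytes was -3.51 (SE 1.79, 95% interval -7.25 to 0.23) over 12 arrays. Over 9 arrays it was -2.18 (SE 0.90, 95% interval -4.11 to -0.26). This quantity holds the adult change that chose the gene and was not tested, so an interval that leaves out 0 is not read as a test. On Bt.27405.1.S1_at the same quantity was -0.05 (SE 2.17) and 0.63 (SE 2.06).

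**Figure D3:**
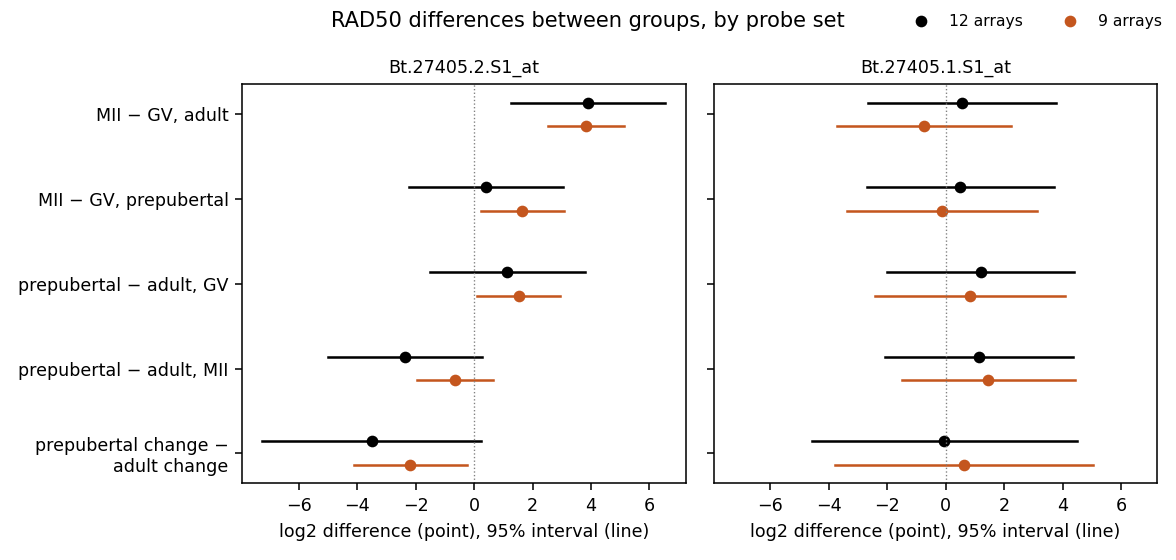
Log2 differences of RAD50 between groups (points) with their 95% intervals (lines) by probe set, from limma fits over 12 arrays (black) and 9 arrays (orange). Only the prepubertal stage comparison was tested. On Bt.27405.2.S1_at it is 0.40 over 12 arrays and 1.65 over 9, and on Bt.27405.1.S1_at 0.51 and -0.12. The other differences use the adult arrays that chose the gene, so their intervals are not read as tests.

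How far the RAD50 probe sets differ was set against the 1271 genes that have exactly 2 kept probe sets. Across the 12 arrays the RAD50 probe sets correlated at a Pearson r of 0.18 (Spearman 0.24), against a median r of 0.28 over these genes, and 41.1% of genes had a lower r. On the 9 arrays r was -0.13 against a median of 0.17. These correlations are descriptions of paired probe sets that share arrays and carry no p. Weak likeness between the probe sets of a gene was thus common on these arrays. The gap between their adult stage differences was wider than usual: it was 3.35 log2 units for RAD50, against a median of 1.44, and 13.8% of genes had a wider one. Over the 9 arrays it was 4.58 against a median of 1.56, with 6.69% of genes wider. RAD50 was chosen for the change on one of these probe sets, so the gap is a description too.

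**Figure D4:**
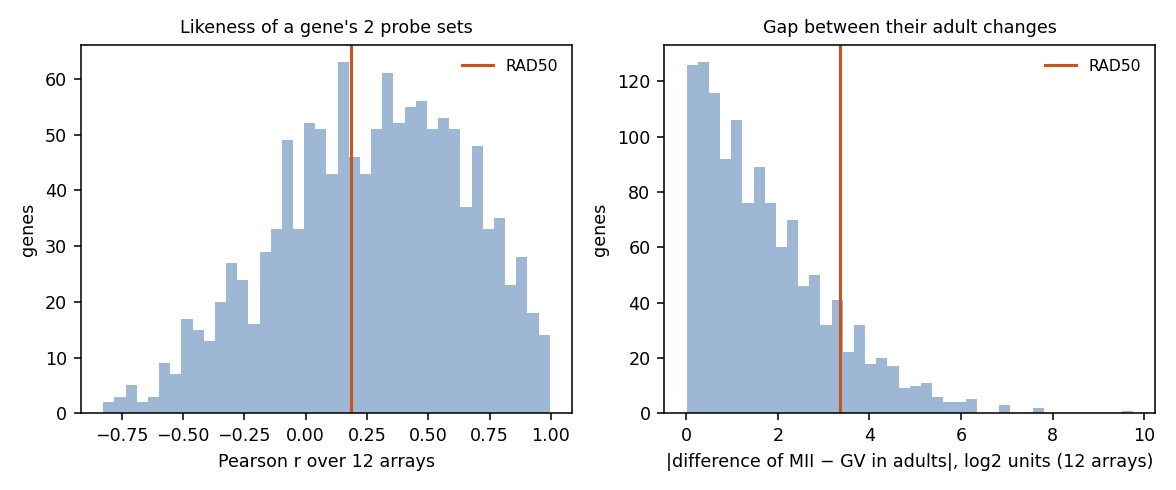
Numbers of genes (vertical axes) by the Pearson r between their 2 kept probe sets over 12 arrays (left) and by the absolute gap between their adult MII minus GV differences in log2 units (right), for 1271 genes. The orange lines mark RAD50, at an r of 0.18 and a gap of 3.35.

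None of the probe sets of MRE11 and NBN, the partners of RAD50 in the MRN complex, passed in either maturation comparison. MRE11, the nuclease, read 8.32, 11.89 and 7.75 in adult GV and 10.33, 11.20 and 9.46 in adult MII arrays. The adult GV arrays spanned the MII arrays, with a difference of 1.01 (SE 1.23; limma adjusted p = 0.809). In prepubertal oocytes MRE11 read -0.44 (SE 1.23; limma adjusted p = 0.999). NBN, which brings ATM to the complex, has 2 kept probe sets. Bt.26892.1.S1_at read 0.94 (SE 1.49; limma adjusted p = 0.857) in adults and 0.91 (SE 1.49; limma adjusted p = 0.999) in prepubertal oocytes. Bt.24703.1.S1_at read 1.74 (SE 1.62; limma adjusted p = 0.746) and 1.65 (SE 1.62; limma adjusted p = 0.999). Across 12 arrays MRE11 correlated with Bt.27405.2.S1_at of RAD50 at a Pearson r of 0.54 and with Bt.27405.1.S1_at at 0.75. NBN (Bt.26892.1.S1_at) correlated with them at -0.21 and -0.12, and at 0.12 and 0.22 with each array's median subtracted, so its sign depends on the scaling. With the 3 arrays left out, r was 0.17 and 0.76 for MRE11 and 0.0089 and -0.69 for NBN, and the adult differences were 0.51 (SE 1.10) for MRE11, -0.32 (SE 1.37) for NBN on Bt.26892.1.S1_at and 2.65 (SE 1.70) on Bt.24703.1.S1_at. These are descriptions over arrays that differ in their median signal and in the level of their oocyte markers.

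Other genes of break repair, damage signalling, telomere protection and chromosome structure were counted from 9 lists that hold 109 genes besides RAD50. Of these, 53 have a probe set with their symbol and 51 were kept. None of the 51 passed in limma in any of the 4 comparisons over 12 or 9 arrays. Over 12 arrays 0% of all probe sets passed in any of them, so a count of 0 is also that of the background. In adult maturation 3 had unadjusted p under 0.05 with higher and 0 with lower MII values over 12 arrays, against 4.08% of probe sets with higher and 3.85% with lower values. On the 9 arrays it was the same 3 with higher values and 4 with lower ones, XRCC3, TIMELESS, STAG3 and RPA3, against 6.94% and 4.48%. In prepubertal maturation it was 1 with a higher and 2 with lower values, against 1.22% and 2.19%; on the 9 arrays it was 2 (NCAPD2 and MSH5) and 3 (STAG3, RPA3 and RAD17), against 3.57% and 3.42%. Between the ages it was 1 with higher prepubertal values at GV (TERF1, against 1.98% higher and 0.527% lower) and 1 at MII (ETAA1, an ATR activator, against 1.91% higher and 0.750% lower). On the 9 arrays it was 3 higher (TERF1, TERF2IP and XRCC4) and 2 lower (SMC4 and XRCC3) at GV, against 3.24% and 1.39%, and 0 at MII, against 1.20% and 1.36%. The adult differences of the 51 genes had a median of 0.59 and lay above 0 for 36, while the median of all probe sets was -0.10 and 48.2% lay above 0. The median over the 9 arrays was -0.04 with 25 above 0, against 0.05 and 51.1%, so the upward lean over 12 arrays went with GV adult replicate 1. The prepubertal median was 0.02 over 12 and 0.02 over 9 arrays.

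The 3 genes with unadjusted p under 0.05 in adults over 12 arrays came from the end-joining and SMC lists. XRCC1, a scaffold for single-strand break repair, read 3.43 (SE 1.21; limma adjusted p = 0.563). XRCC4, which holds the ligase of end joining, read 3.22 (SE 1.44; limma adjusted p = 0.605). NCAPG, a condensin subunit, read 3.0 (SE 1.35; limma adjusted p = 0.606). NCAPG was 6.77, 11.22 and 11.15 in adult GV and 12.46, 13.04 and 12.65 in adult MII arrays, and over the 9 arrays its difference was 1.53 (SE 0.59). XRCC1 and XRCC4 read 2.55 (SE 1.08) and 4.61 (SE 1.40) there. As with RAD50, the probe sets of XRCC4 differed, since its other kept one read 0.44 (SE 1.31) over 12 arrays and -0.03 (SE 1.24) over 9. Among the 10 kept end-joining genes, 1 of the 9 lists, 8 lay above 0 in adults over 12 and over 9 arrays, where 48.2% and 51.1% of all probe sets did. Their medians were 1.17 and 1.26, against -0.10 and 0.05 over all probe sets. None of these passed the threshold.

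In prepubertal maturation over 12 arrays the genes with unadjusted p under 0.05 were TERF1, STAG3 and NCAPD2. TERF1, a telomere repeat-binding protein, read -3.04 (SE 1.29; limma adjusted p = 0.999), from 8.67, 11.96 and 8.70 at GV to 5.64, 8.22 and 6.37 at MII. In adults it read 1.23 (SE 1.29; limma adjusted p = 0.779). All 5 kept telomere genes lay below 0 in prepubertal oocytes (median -1.31, against -0.29 over all probe sets, of which 58.8% lay below 0), and 3 of the 5 lay above 0 in adults. STAG3, the meiotic cohesin subunit, read -3.83 (SE 1.35; limma adjusted p = 0.999), and -2.71 (SE 1.44) on its other kept probe set. Of the 9 kept genes of the SMC list, STAG3 alone lay below 0 in prepubertal oocytes, over 12 and over 9 arrays. The other 8 lay above 0, where 41.2% and 46.6% of all probe sets did. The medians of the 9 genes were 1.0023 and 0.9911, against -0.29 and -0.14 over all probe sets. In adults 5 and 4 of the 9 lay above 0, against 48.2% and 51.1% of all probe sets. NCAPD2, a condensin subunit, read 4.97 (SE 1.80; limma adjusted p = 0.999), from 3.30, 5.15 and 1.56 at GV to 6.98, 8.49 and 9.45 at MII. All 3 of these GV values lie under the median of their array.

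Genes that work next to MRN at broken ends held values on both sides of 0. RBBP8, which starts resection together with MRN, has 2 kept probe sets. They read 1.57 (SE 1.37; limma adjusted p = 0.732) and -0.93 (SE 1.17; limma adjusted p = 0.815) in adult maturation. On the 9 arrays both lay below 0, at -0.12 (SE 0.53) and -1.57 (SE 0.95). H2AX, the histone that ATM marks around a break, read -1.30 (SE 1.12) in adults, and RNF168, a ubiquitin ligase that acts on that mark, -2.10 (SE 1.13) in prepubertal oocytes; another RNF168 probe set read -0.45 (SE 1.81). Of the 8 kept damage signalling partners 6 lay above 0 in adults over 12 arrays and 2 over 9. Of the 5 kept ATR pathway genes 3 and 0 did, where 48.2% and 51.1% of all probe sets lay above 0. Lists this short are described only, and each gene is counted by its probe set of highest mean. TIMELESS, an ATR pathway gene, has another kept probe set. That one read 8.47 and 6.22 in GV adult replicates 2 and 3 and 9.83, 7.81 and 9.35 at adult MII. XRCC3, a gene of homologous recombination, had over the 9 arrays the lowest adjusted p of the 51 genes in adults. It read -4.65 (SE 1.15; limma adjusted p = 0.138), with 13.13 and 12.58 in GV replicates 2 and 3 and 10.29, 7.64 and 6.71 at MII. Over 12 arrays it read -2.29 (SE 1.59), with 5.79 in GV adult replicate 1. Its other probe set read 0.73 (SE 1.41) over the 9 arrays.

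**Figure D5:**
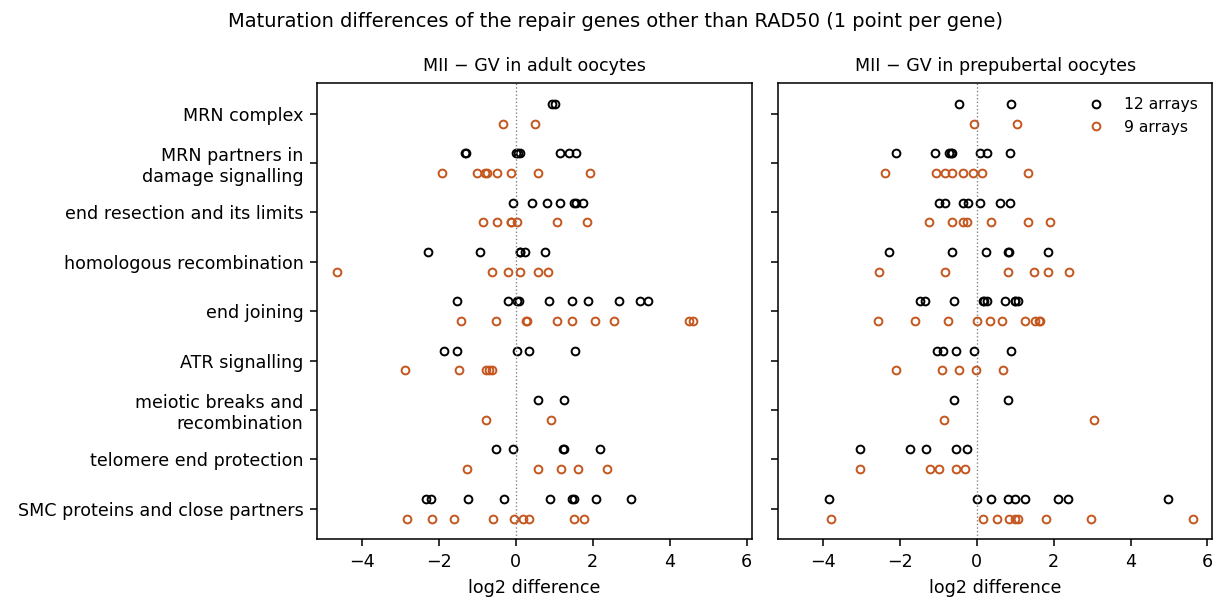
Log2 differences between MII and GV (horizontal axis) for the 51 kept genes other than RAD50 of 9 lists, 1 point per gene and list, in adult (left) and prepubertal (right) oocytes, over 12 arrays (black) and 9 arrays (orange). No point passed the adjusted threshold. Each gene is drawn by its probe set of highest mean. On these probe sets all 5 telomere genes lie below 0 in prepubertal oocytes, as do 58.8% of all probe sets over 12 arrays. All 5 ATR genes lie below 0 in adults over 9 arrays, where 51.1% of all probe sets lie above 0. Over 12 arrays 3 of these 5 ATR genes lie above 0 in adults.

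Genes with the array pattern most like that of Bt.27405.2.S1_at were listed by Pearson r among 6731 kept genes, with no test, since they were picked for their r. Over 12 arrays the 8 highest were APLF, an end-joining factor (r = 0.94, Spearman 0.94), the formin FMNL2 (0.94, 0.96), GIT2 (0.90, 0.85), the transcription factor ATF2 (0.90, 0.82), the autophagy receptor NBR1 (0.90, 0.89), BANF1, a chromatin-binding protein of the nuclear envelope (0.90, 0.81), LMBRD1 (0.90, 0.87) and the Polycomb gene PCGF6 (0.89, 0.95). APLF read 7.88, 9.84 and 8.75 in adult GV and 11.69, 11.34 and 11.85 in adult MII arrays. Its prepubertal values were 8.34, 9.40 and 10.14 at GV and 7.68, 11.03 and 10.48 at MII. Like RAD50, it was low on the MII prepubertal array without an oocyte profile. Without the 2 arrays farthest from the RAD50 median its r was 0.93.

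Over the 9 arrays the 8 genes most like it were the cholesterol transporter NPC1 (r = 0.98), RNF19B (0.98), SCPEP1 (0.97), FUBP1 (0.96), the heme synthesis enzyme FECH (0.96), FMNL2 (0.95), NBR1 (0.95) and MLLT10 (0.95). The lists over 12 and 9 arrays shared 2 genes, FMNL2 and NBR1. With each array's median subtracted first, 5 of the 8 genes remained over 12 arrays and 7 of 8 over 9. The lowest r over 12 arrays belonged to the stress gene IER3 (-0.92), CUL7 (-0.90), TMEM179B (-0.89) and TNFAIP6 (-0.88), a matrix gene of cumulus cells. Over 9 arrays it belonged to RBM45 (-0.94), NDUFA12 (-0.94), JUND (-0.94) and MTMR2 (-0.93). None of the 4 lowest at either number of arrays remained after the median was subtracted. MRE11 stood at rank 929 of 6731 over 12 arrays and 2382 over 9, and NBN at 4283 and 3076.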

How the data were processed

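The deposited values are log2 signals, for which the processing notes of the submitters list MAS5; its version and settings are not given in the sources used here. Per the deposited log2 values, the linear mean without the lowest and highest 2% was 500 on every array, so arrays were not scaled again. The 112 control probe sets were left out, and 14409 of 24016 were kept (mean over 12 arrays above the 40th percentile, 5.57). Symbols came from the platform annotation, updated through Entrez identifiers in a RefSeq table of ARS-UCD2.0 (99.8% matched). The 4 groups were fitted together by limma (version 3.58.1, R 4.3.3) with an intensity trend (8 residual degrees of freedom; 5 over 9 arrays), with Benjamini-Hochberg adjustment over all kept probe sets (threshold 0.05). A gene with several probe sets entered the lists with the one of highest mean. Lists, members, the 9 arrays (oocyte marker median at least 2 above the array median) and alternatives were chosen with earlier results of these data known. Named genes were RAD50, MRE11, NBN, list members past the threshold, the 2 per list with the smallest unadjusted p per maturation change where space allowed, those with unadjusted p under 0.05 or few in a count (named after their values were seen), and the 8 highest and 4 lowest by correlation. Same-numbered prepubertal GV and MII arrays deviated together (correlations 0.609, 0.149 and 0.306, from the data and not the labels), but not every array correlated best with its own number, and the highest value is that of the 2 replicate 1 arrays without an oocyte profile. The fit was checked on simulated arrays. Where in the transcript each RAD50 probe set lies was not analysed here.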

Additional observations from a re-analysis of the deposited data

How the results depend on the processing

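On Bt.27405.2.S1_at the adult change kept its sign in every alternative run and in every fit that left out 1 array (3.84 to 3.96). This contrast chose the gene and its groups do not overlap, so leaving out 1 array could not reverse the sign. The steady sign is therefore a description only. The adult change moved to 2.23 with the mean of both RAD50 probe sets, an alternative chosen after seeing the data. The prepubertal change on this probe set never passed the threshold; it reversed to -0.06 without GV prepubertal replicate 1, -0.52 without MII prepubertal replicate 2 and -0.40 without MII prepubertal replicate 3, and the fits without 1 array ran from -0.52 to 2.11. On Bt.27405.1.S1_at it reversed to -0.091 with the letter b of array titles as a covariate, -0.12 over 9 arrays, -0.12 over 8 arrays (also without MII adult replicate 3), -0.19 over 9 arrays with quantile normalization and -0.44 without GV prepubertal replicate 1 (without 1 array, -0.44 to 1.42). Over all these fits its adjusted p ran from 0.674 to 1 and that of Bt.27405.2.S1_at from 0.304 to 1 (limma). The age difference of Bt.27405.2.S1_at at MII moved to -0.65 over 9 arrays, -0.63 over 8, -0.57 over 9 with quantile normalization, -0.28 over 9 with median centring and -0.61 with the mean of both probe sets (without 1 array, -3.29 to -0.65). The difference between its maturation changes moved to -1.49 over 9 arrays with median centring and -1.78 with the mean of both probe sets (without 1 array, -4.43 to -1.79). The reversals without 1 array follow from the array left out; for the other changes, that with the letter b included, the cause was not tested.

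Median centring moved the median adult change of all probe sets by 0.78 and the prepubertal one by 0.91. It shifts all probe sets of an array alike, so the RAD50 changes on Bt.27405.2.S1_at relative to that median, 4.01 and 0.69, are the same with and without it by construction. With the replicate block, fitted over the 6 prepubertal arrays, the prepubertal change was 0.40 (SE 0.79, limma adjusted p = 0.882) and on Bt.27405.1.S1_at 0.51 (SE 0.70, limma adjusted p = 0.824); the block changed no call. Counts of repair genes were 0 in every alternative but a rule that asked for a 2-fold change and an unadjusted p under 0.05. By that rule they were 3 in adult and 3 in prepubertal maturation, 1 between the ages at GV (TERF1) and 1 at MII (ETAA1). The share of all probe sets under that rule was not counted. Without its 2-fold demand, 4.08% were higher and 3.85% lower in adult maturation, and 1.22% and 2.19% in prepubertal maturation. Between the ages it was 1.98% and 0.527% at GV, and 1.91% and 0.750% at MII.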

Other observations

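In the RefSeq table RAD50 lies between IL13 and SLC22A5 in the cytokine gene cluster, and IL5 and IRF1 fall inside the span of its gene model there. The cytokine genes IL4, IL5 and IL13 have 4 probe sets, and none passed the filter on low signal. Of the other neighbours, KIF3A, a kinesin subunit, read 6.50, 10.51 and 9.88 in adult GV and 11.07, 10.94 and 10.57 in adult MII arrays, a difference of 1.90 (SE 1.41; limma adjusted p = 0.696). In prepubertal oocytes KIF3A read -0.06 (SE 1.41; limma adjusted p = 0.999). The carnitine transporter SLC22A5 has 1 kept probe set, with an adult value of 0.23 (SE 1.14) and a prepubertal one of -0.035 (SE 1.14). SEPTIN8 read -0.73 (SE 1.96) and -2.22 (SE 1.96) on its probe set of highest mean, and PDLIM4 read -1.63 (SE 1.52) and 0.54 (SE 1.52). None of the 4 kept neighbours passed in limma in either maturation comparison, and 0 had unadjusted p under 0.05 there over 12 arrays, against 4.08% of probe sets higher and 3.85% lower in adults and 1.22% and 2.19% in prepubertal oocytes. Between the ages at GV over the 9 arrays 1 did, SEPTIN8, with higher prepubertal values (5.06, SE 2.00; limma adjusted p = 0.997), against 3.24% of probe sets.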
